A study of Drosophila melanogaster with 3 samples.

Results

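Small nucleolar RNA (snoRNA) genes of Drosophila melanogaster were examined in peak lists from chromatin immunoprecipitation followed by sequencing (ChIP-seq) of Su(var)3-7, a heterochromatin protein with zinc fingers. Membership followed the annotated biotype alone, though this gene set was picked with earlier results of these data known. Of the 18277 genes annotated on 7 chromosome arms, 269 were snoRNA genes. The series held 1 group of 3 biological replicates. The flies carried a stably expressed transgene for Su(var)3-7 with green fluorescent protein (GFP) at its C terminus, and chromatin from whole mixed-sex embryos aged 0 to 24 h was sonicated and precipitated with an antibody against GFP. No untagged embryos or mock precipitation were analysed here, and the lists came from whole embryos, so binding in fewer cells and weaker binding per cell cannot be told apart. The promoter that drives the transgene is not named in the labels.

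SnoRNAs guide the chemical modification of other RNAs, mainly ribosomal RNA, in the nucleolus. RNAs with boxes C and D guide methylation of the ribose, and RNAs with boxes H and ACA guide the change of uridine to pseudouridine, while related RNAs of the Cajal body act on the RNAs of the splicing machinery. In flies most snoRNAs are cut out of introns of host genes, among them many ribosomal protein genes and the non-coding Uhg genes (U snoRNA host genes), so their output follows the transcription of the host. The U3 RNAs, which take part in cutting the ribosomal RNA precursor, are made from genes of their own.

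The sequences below are of snoRNA genes and host promoters that lay near a peak, read from the RefSeq genome of Release 6 (build dm6) and given on the strand of the gene. The first 4 are snoRNA genes near a peak, with the ACA box, or boxes C and D, in capitals. Psi18S-1275 lies in RpS29 (chr3R:9778398-9778537, plus strand), Me28S-A774b in RpS12 (chr3L:13023580-13023652, plus strand), and Psi18S-920 in RpL10Ab (chr3L:11822984-11823124, plus strand). Psi18S-301 has no host (chr3R:20574906-20575043, plus strand).
snoRNA:Psi18S-1275: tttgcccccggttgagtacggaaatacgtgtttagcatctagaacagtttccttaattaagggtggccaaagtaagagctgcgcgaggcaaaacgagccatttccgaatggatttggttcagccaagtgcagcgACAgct
snoRNA:Me28S-A774b: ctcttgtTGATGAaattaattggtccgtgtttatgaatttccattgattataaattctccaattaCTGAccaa
snoRNA:Psi18S-920: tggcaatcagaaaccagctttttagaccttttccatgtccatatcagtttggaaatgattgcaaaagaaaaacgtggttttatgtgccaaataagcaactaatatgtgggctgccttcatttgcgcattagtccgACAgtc
snoRNA:Psi18S-301: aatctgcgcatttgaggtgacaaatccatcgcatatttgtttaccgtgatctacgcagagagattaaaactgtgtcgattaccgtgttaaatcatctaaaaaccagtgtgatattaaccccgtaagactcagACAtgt

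The next 5 are the bases just before the start site of hosts whose start-site peak also lay near a snoRNA. Capitals mark TATCGATA, the DNA replication-related element (DRE), where it occurs. They are those of RpL28 (chr3L:3222961-3223080, minus strand), RpS12 (chr3L:13023202-13023351, plus strand), RpL10Ab (chr3L:11822701-11822850, plus strand), RpS6 (chrX:7901332-7901481, minus strand) and RpL15 (chr3L:27267105-27267254, plus strand), the last shown because it holds no copy in these bases.
RpL28: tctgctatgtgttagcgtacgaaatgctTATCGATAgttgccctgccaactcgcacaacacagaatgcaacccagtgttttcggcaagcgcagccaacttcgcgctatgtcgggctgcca
RpS12: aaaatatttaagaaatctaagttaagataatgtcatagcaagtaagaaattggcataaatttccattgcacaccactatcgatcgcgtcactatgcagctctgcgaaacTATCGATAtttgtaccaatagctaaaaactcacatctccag
RpL10Ab: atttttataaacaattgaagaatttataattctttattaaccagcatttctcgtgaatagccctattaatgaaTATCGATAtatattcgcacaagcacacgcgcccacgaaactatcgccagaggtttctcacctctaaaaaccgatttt
RpS6: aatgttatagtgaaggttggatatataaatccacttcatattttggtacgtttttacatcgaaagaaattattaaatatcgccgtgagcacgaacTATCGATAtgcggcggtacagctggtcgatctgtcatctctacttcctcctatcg
RpL15: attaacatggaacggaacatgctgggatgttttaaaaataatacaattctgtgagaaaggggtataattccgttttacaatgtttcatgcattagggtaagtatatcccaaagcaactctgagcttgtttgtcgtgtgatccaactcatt

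By their names, 106 of the snoRNA genes were pseudouridylation guides and 77 methylation guides. A further 16 carried a U name such as U3, 16 were Cajal body RNAs and 54 had other names. The sequences bore these names out: 101 of the 106 pseudouridylation guides (95.3%) had ACA 3 bases before the 3′ end. TGATGA in the first 20 bases together with CTGA in the last 20 was found in 59 of the 77 methylation guides (76.6%). The genes were 46 to 316 bases long, with a median of 134. Of all 269, 247 lay within 90 host genes, on the host's strand, and 22 had no host. Introns held 228 of them, while 15 overlapped an exon of some host transcripts and 4 an exon of every host transcript. Their 5′ ends lay 96 to 50634 bp from the nearest upstream start of the host, with a median of 1528 bp.

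Few snoRNA genes lay near a peak. A peak is here one of the 4055 regions that passed the authors' reproducibility threshold, and near means that its summit, the point of highest signal, lay within 500 bp of the gene's 5′ end. That was so for 20 of 269 snoRNA genes (7.43%, Wilson 95% interval 4.86% to 11.2%). In the 4055 strongest regions of each replicate the count was 19 in replicate 1, 19 in replicate 2 and 16 in replicate 3, or 6.69% ± 0.64 (SD, n = 3). Counted at the 5′ end in the same way, the share was 16.5% for protein-coding genes, 7.24% for tRNA genes and 21.9% (7 of 32, interval 11% to 38.8%) for small nuclear RNA genes. Counted at any annotated start, it was 18.4% for protein-coding genes and 5.72% for non-coding RNA genes. With this window snoRNA genes thus stood below protein-coding and small nuclear RNA genes, and near tRNA and non-coding RNA genes. The gap to protein-coding genes depended on the window. Within 1000 bp, 56 of 269 snoRNA genes had a thresholded summit (20.8%), against 19.7% of protein-coding genes at the 5′ end and 21.4% at any start. The intervals cover the counting of genes, and snoRNA genes that share a host or a peak are not independent, so no test was made.

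In a wider list snoRNA genes again stood below protein-coding genes, and here below tRNA genes too. Of the 30000 relaxed regions called on the pooled replicates, which include background, a summit lay near 72 of the 269 snoRNA genes (26.8%). At the 5′ end the share was 49.2% for protein-coding genes (51.9% at any start) and 44.5% for tRNA genes. The 52 snoRNA genes reached by a relaxed region but by no thresholded peak had signals of 33.7 to 110, with a median of 58.8, on the authors' own scale, which is not stated. Those values sit below the weakest thresholded peak, at 119. For 197 snoRNA genes no region of the pooled list lay near. SnoRNA genes close beside one another often shared a region, and the 72 genes were reached by 58 distinct ones. A pooled summit fell inside the snoRNA gene itself in 9 of 269 cases, and a thresholded summit in 1. The lengths of the 269 genes add up to 32192 bases, and 2L, 2R, 3L, 3R, 4 and X together hold 133880608. No share over other features was counted for summits inside a gene, so these counts are not read as high or low.

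The 20 snoRNA genes were served by 17 distinct peaks, of which 3 were near 2 snoRNA genes each. Their signals were 122 to 524 with a median of 164, against a median of 181 over all thresholded peaks, and 6 of the 17 were above that median. The best rank among them was 271. Their summits lay upstream of the snoRNA 5′ end for 15 of the 20 genes, with a median of 161 bp upstream over all 20, and within 200 bp of it for 9. Of the 17 peaks, 10 had their summit within 500 bp of the start of the host, and 7 did not. The 10 peaks at host starts accounted for 12 of the 20 snoRNA genes.

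**Figure D1:**
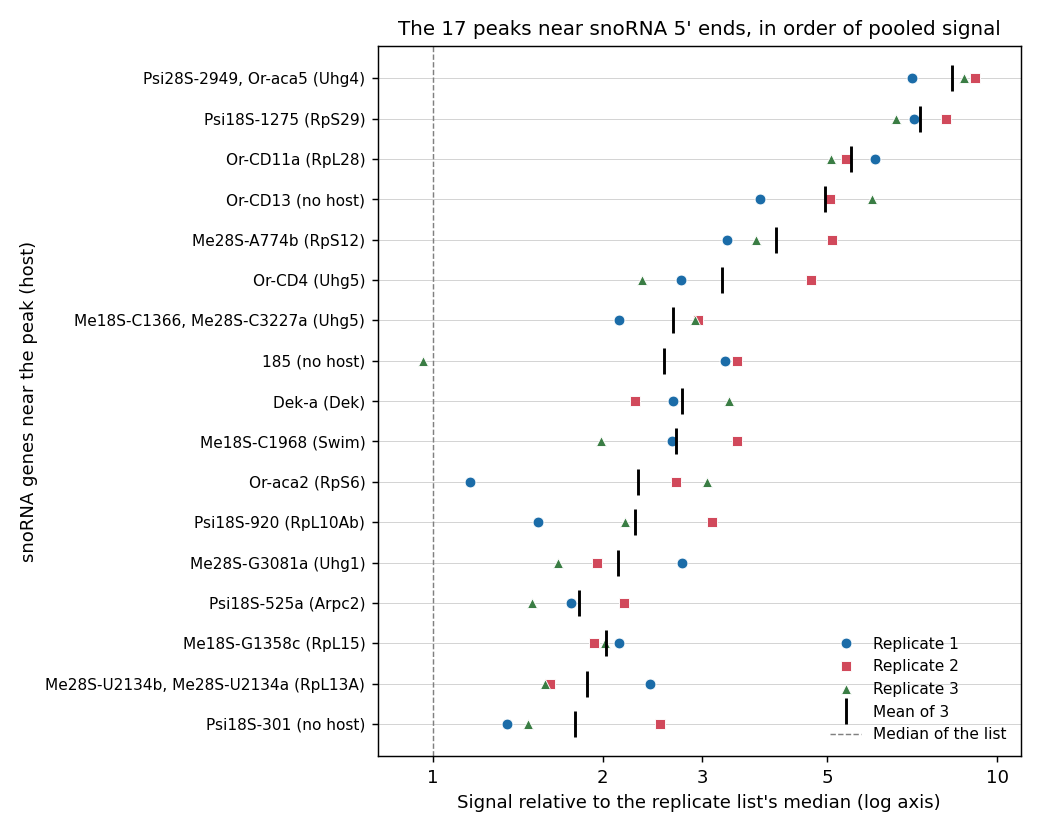
Signal of the 17 thresholded peaks near snoRNA 5′ ends in each replicate, divided by the median of that replicate's list of 30000 regions (log axis). Points are the 3 replicates and the vertical tick their mean, and rows are labelled with the snoRNA genes and, in brackets, the host. The Uhg4, RpS29 and RpL28 peaks lay above 5 in every replicate, and the peak of snoRNA:185 fell to 0.96 in replicate 3.

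The strongest was at the start of Uhg4, a non-coding host of 7 snoRNA genes (chr2R:9095041-9095337, summit 78 bp upstream of the start, signal 524). It stood at 7.07, 9.13 and 8.73 times the list median in replicates 1, 2 and 3, a mean of 8.31 ± 1.09 (SD, n = 3). Its summit lay 177 bp before Psi28S-2949, a pseudouridylation guide, and 490 bp before Or-aca5. The other 5 snoRNA genes of Uhg4 lay further in and had no peak nearby. The RpS29 peak, at the start of a gene for a protein of the small ribosomal subunit, had its summit at the start site itself (chr3R:9777929-9778123, signal 468). It stood at 7.11, 8.13 and 6.62 times the median, and 356 bp before Psi18S-1275, whose sequence is printed above. Both peaks were well above the list median in every replicate, and their replicate values overlapped.

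Within 500 bp of starts of both RpL28, a gene of the large ribosomal subunit, and eIF1, a translation initiation factor gene, lay a peak of signal 352. Its replicate values were 6.08, 5.40 and 5.08 times the median, and its summit was 464 bp before Or-CD11a. The peak at RpS12 (signal 258) stood at 3.33, 5.10 and 3.74 times the median and was 274 bp before Me28S-A774b, a methylation guide. RpS12 carries a second snoRNA gene further in, with no thresholded peak near it. These 2 peaks were in the strongest 4055 regions of all 3 replicates.

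Weaker start-site peaks served the remaining hosts. At Uhg5, a non-coding host of 11 snoRNA genes, the start peak (signal 175), which also lay within 500 bp of a start of CG12863, stood at 2.14, 2.95 and 2.92 times the median. It was near Me18S-C1366 and Me28S-C3227a, both methylation guides. The peak 285 bp inside Dek, the gene of a DNA-binding chromatin protein, had 2.67, 2.28 and 3.35 times the median and was 486 bp before Dek-a. For RpS6, of the small subunit, the peak (signal 146) stood at 1.17, 2.70 and 3.06 times the median, with its summit 83 bp before Or-aca2. Replicate 1 was thus the low one at RpS6, where the region ranked outside its strongest 4055. Replicate 1 was also the lowest at RpL10Ab, of the large subunit (signal 139, at 1.54, 3.12 and 2.19 times the median), whose summit lay 168 bp before Psi18S-920. The peak of Uhg1, host of 16 snoRNA genes, was highest in replicate 1 (2.76, 1.95 and 1.67 times the median, signal 137). RpL15, of the large subunit, had 2.14, 1.93 and 2.02 times the median (signal 126), the closest agreement of the 17.

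The other 7 peaks lay away from host starts. One was past the annotated 3′ end of Uhg5, 451 bp beyond the 5′ end of Or-CD4, with a signal of 222 and replicate values of 2.75, 4.68 and 2.35 times the median. Another was inside Swim, whose name stands for secreted Wg-interacting molecule, with its summit 49 bp past the 5′ end of Me18S-C1968 and so within that snoRNA gene. Me18S-C1968 lay 5297 bp from the nearest upstream start of Swim, the greatest distance among snoRNA genes with a peak. That peak (chr2R:22197113-22197536, signal 151) stood at 2.65, 3.46 and 1.99 times the median and was in the strongest regions of all 3 replicates. In Arpc2, for a subunit of the actin-nucleating Arp2/3 complex, a peak 863 bp past the start (signal 127; 1.76, 2.19 and 1.5 times the median) was 395 bp before Psi18S-525a. In RpL13A a peak 1127 bp past the start (signal 122; 2.43, 1.61 and 1.58 times the median) was near Me28S-U2134a and Me28S-U2134b. The Arpc2 and RpL13A peaks each ranked among the strongest regions of 1 replicate.

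The remaining 3 peaks were near snoRNA genes with no host. The peak near Or-CD13 lay inside egr, the gene of the fly tumour necrosis factor ligand, with a signal of 308 and replicate values of 3.80, 5.06 and 6.00 times the median. Its pooled summit was 492 bp from Or-CD13, and no replicate placed its own summit within 500 bp, so that this gene counted in the thresholded list and in no replicate. The peak near snoRNA:185 had 3.30, 3.45 and 0.96 times the median, so replicate 3 did not rise above its list's median there. The peak at Psi18S-301 (chr3R:20574693-20575116, signal 122) had its summit 1 bp before the 5′ end of the gene printed above, closer than any other. It stood at 1.35, 2.52 and 1.48 times the median, and in the strongest 4055 regions of replicate 2 alone.

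SnoRNA genes near a peak were mostly those close to the start of their host. Of 30 snoRNA genes within 500 bp of the host start, 11 had a peak nearby (36.7%, interval 21.9% to 54.5%). Each replicate's strongest regions gave 10 of 30. Over greater distances the count was 3 of 48 (6.25%) over 500 and up to 1000 bp, 1 of 77 (1.3%) up to 2000 bp and 2 of 92 (2.17%) beyond. Past 500 bp it was 6 of 217 in all (2.76%, interval 1.27% to 5.90%), with 7, 5 and 5 in the replicates, or 2.61% ± 0.53 (SD, n = 3). Of all bases that lay inside protein-coding genes and over 500 bp from any start site, 1.75% were within 500 bp of a thresholded summit. That value fell within the interval for snoRNA genes beyond 500 bp. For relaxed regions the 2 shares were 16.6% for these snoRNA genes and 17.6% for such bases. The 2 sets are not fully matched. The bases exclude those near a start of any protein-coding or non-coding RNA gene. The snoRNA genes were measured from the nearest upstream start of their own host alone, and some have non-coding hosts.

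**Figure D2:**
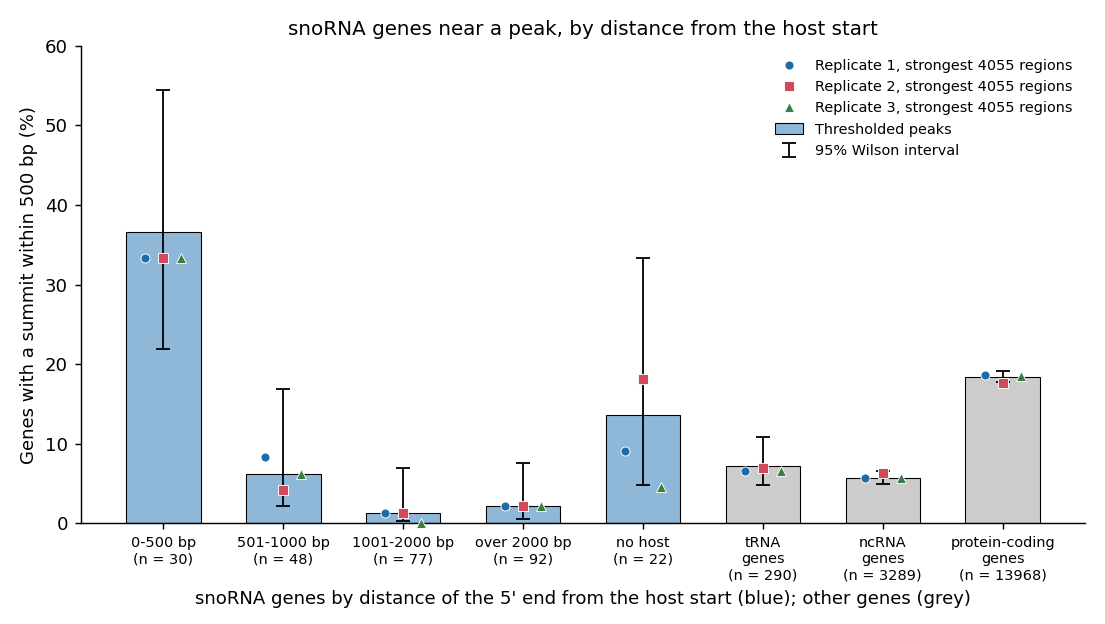
Share of genes with a summit within 500 bp, for snoRNA genes grouped by distance from the host start (blue) and for other genes (grey). Bars are thresholded peaks with Wilson 95% intervals, and points are the strongest 4055 regions of each replicate. The share was 36.7% within 500 bp of the host start and at most 6.25% in each bin beyond.

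The first snoRNA gene of a host is the closest to its start. A peak lay near the first snoRNA gene in 12 of 90 hosts (13.3%), and near 5 of the 157 later ones (3.18%). The replicates gave 11.9% ± 0.64 for first genes and 3.18% ± 0.64 for later ones (SD, n = 3), with no overlap. That SD is over replicates scoring the same genes and does not cover the spread over genes. Where the host start had a peak, the snoRNA genes within 500 bp of the start had one nearby in 11 of 22 cases. In the same hosts the count was 3 of 32 up to 1000 bp, 0 of 47 up to 2000 bp and 1 of 52 beyond. Where the host start had none, it was 0 of 8, 0 of 16, 1 of 30 and 1 of 40 in the same order. A 500 bp window around a snoRNA gene close to the start takes in the start itself, so these counts and those of host starts share peaks.

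The hosts themselves often carried a start-site peak. Of the 90 hosts, 47 had a summit at most 500 bp from a start (52.2%, interval 42.0% to 62.2%), against 18.4% of protein-coding genes. The replicates' strongest regions gave 47, 47 and 48 hosts, or 52.6% ± 0.64 (SD, n = 3). A further 35 hosts had a relaxed region there and 8 had none. Hosts had 1.92 annotated starts on average and protein-coding genes 1.41, and a match at any start counted. Where only the start next upstream of the first snoRNA gene counted, 37 hosts had one. A peak can also lie near a start of a neighbouring gene. With each peak given to its nearest start only, 40 hosts had one (44.4%), against 13.8% of protein-coding genes. The 47 hosts held 153 snoRNA genes, of which 15 were near a thresholded summit, and in 36 of the 47 no snoRNA gene was near one.

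Ribosomal protein genes made up 24 of the 47. Of 29 ribosomal protein genes that host snoRNA, 24 had a start-site peak (82.8%, interval 65.5% to 92.4%), and 41 of 64 without snoRNA did (64.1%, interval 51.8% to 74.7%). These intervals overlap. The replicates gave 83.9% ± 5.27 for the hosts and 62.5% ± 4.13 for the others (SD, n = 3), with the 3 hosts' values all above the 3 others'. Each replicate scored the same genes, so that order does not measure the spread over genes, which the overlapping intervals cover. The hosts also had more annotated starts to match, 1.97 on average against 1.58, and the shares were not adjusted for that. The median signal of the start-site peak was 284 in the hosts and 251 in the others. Other protein-coding hosts had a peak in 20 of 54 cases (37.0%, interval 25.4% to 50.4%), and non-coding hosts in 3 of 7, with 4, 2 and 2 of 7 in the replicates. Hosts of 2 or more snoRNA genes had one in 25 of 37 cases (67.6%), and hosts of a single one in 22 of 53 (41.5%). This split mixes ribosomal protein genes with other hosts and was not matched for them. The number of snoRNA genes and the kind of host therefore cannot be told apart here.

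**Figure D3:**
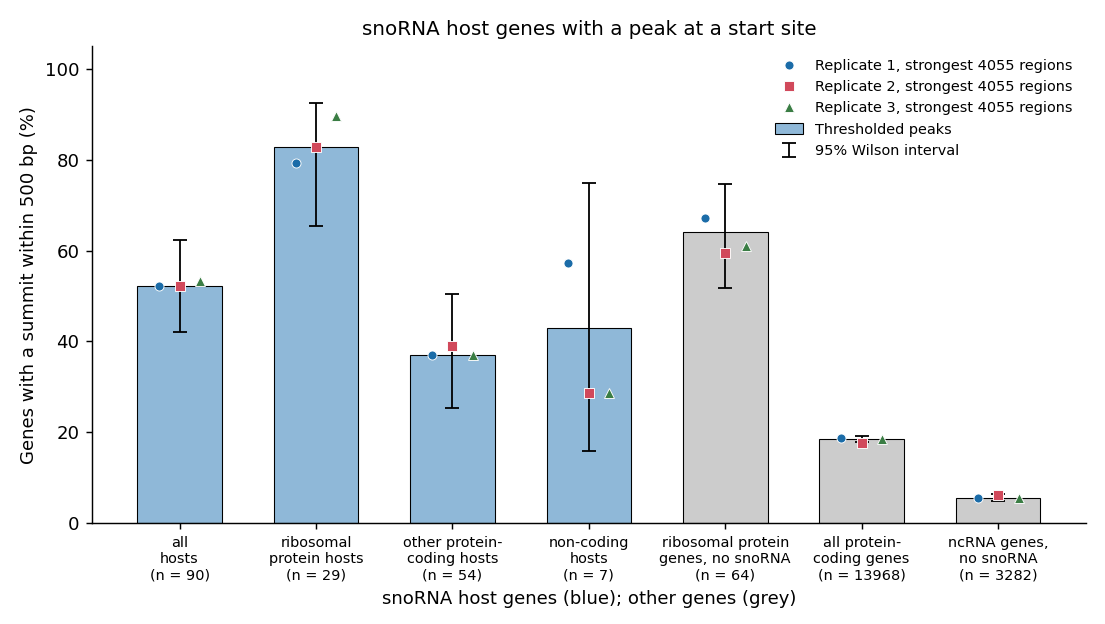
Share of snoRNA host genes (blue) and other genes (grey) that had a start-site summit (500 bp or less away). Bars are thresholded peaks with Wilson 95% intervals and points are each replicate's strongest 4055 regions. Ribosomal protein hosts stood at 82.8%, ribosomal protein genes without snoRNA at 64.1% and all protein-coding genes at 18.4%.

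Start-site peaks of hosts had signals of 120 to 1042 with a median of 258, where the median over all protein-coding genes with such a peak was 191. Their summits lay a median of 49 bp upstream of the start, and 101 bp upstream over all protein-coding genes. Of the 47, 37 were upstream, 40 within 200 bp of the start, and 37 matched one of the strongest 4055 regions of every replicate. The strongest was at Stt3A, for a subunit of the oligosaccharyltransferase that glycosylates proteins (signal 1042), with 14.9, 18.5 and 15.3 times the list median in replicates 1, 2 and 3. Its summit lay 400 bp upstream of the start, and its 3 snoRNA genes lay 1576 to 2959 bp inside, none near a thresholded summit.

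RpL23A came next (chr3L:1668580-1668914, signal 896; 13.7, 15.5 and 13.6 times the median). It is a gene of the large subunit that spans the non-coding gene Uhg7, and its 4 snoRNA genes lie in the span of Uhg7 too. Msp300, for a nesprin-type protein of the nuclear envelope and muscle, had 11.5, 13.5 and 10.3 times the median (signal 751), while its snoRNA gene lay 50634 bp from its nearest upstream start. RpL14, of the large subunit, had 11.6, 11.7 and 10.5 times the median (signal 713), and CG1142 had 10.8, 10.6 and 9.79 (signal 654). These 5 hosts were high in every replicate, with SDs of 0.54 to 1.93 around means of 10.4 to 16.2, and none of their snoRNA genes was near a thresholded peak. The peak at RpL11, of the large subunit, had the largest SD among the 20 strongest (2.27), with 6.06, 10.2 and 6.44 times the median.

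**Figure D4:**
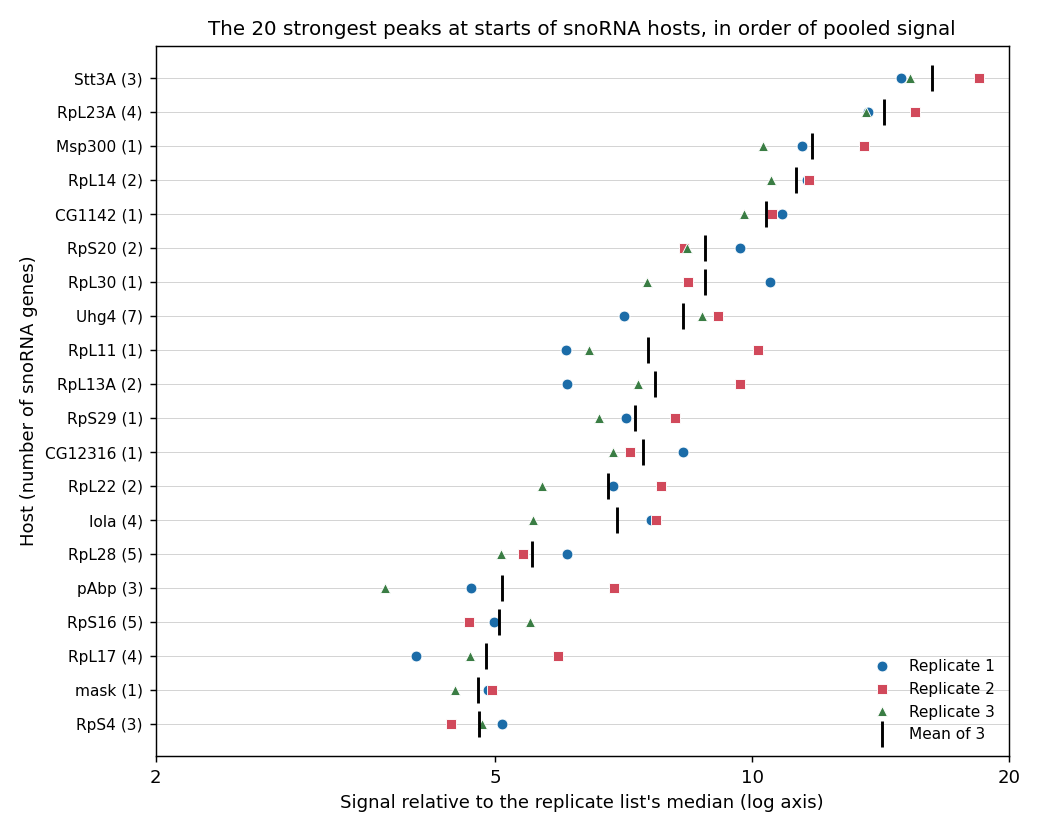
Signal of the 20 strongest start-site peaks of snoRNA hosts in each replicate, divided by the median of that replicate's list (log axis), with the number of snoRNA genes in brackets. Points are replicates and the vertical tick their mean. Stt3A and RpL23A lay above 13 in every replicate, and RpL11 spread from 6.06 to 10.2.

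The 5 hosts richest in snoRNA genes differed in where their peaks lay. Arpc2 held 17 snoRNA genes, 1258 to 4838 bp past its start. It had a relaxed region but no thresholded peak at the start, and the thresholded summit 863 bp in, near its first snoRNA gene. Uhg1 held 16, from 111 to 4005 bp, with its peak 43 bp before the start and no pooled summit from 500 bp to the last snoRNA gene. In dom, which encodes the chromatin remodeller Domino, 15 snoRNA genes lay from 1788 to 10715 bp. The dom peak, at 23 bp past the start (signal 124), stood at 2.66 and 1.84 times the median in replicates 2 and 3, and replicate 1 listed no region within 200 bp of its summit. Beyond 500 bp there was 1 relaxed region, of signal 58.7.

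RpS5a, of the small subunit, held 14 snoRNA genes and has 2 annotated starts 1058 bp apart. Its peak (signal 275; 3.96, 5.27 and 3.84 times the median) was at the upstream start, and no pooled summit lay within 500 bp of the other start or from there to the last snoRNA gene. Uhg5, with 11 snoRNA genes, had a peak at each end and no pooled summit from 500 bp past the start to the last snoRNA gene. In these 5 hosts, 73 snoRNA genes were annotated, and 5 of them were near a thresholded summit. Of the other non-coding hosts, Uhg3 had a relaxed region of signal 110 at its start, Uhg8 one of 85.9 and Uhg2 one of 60.1.

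**Figure D5:**
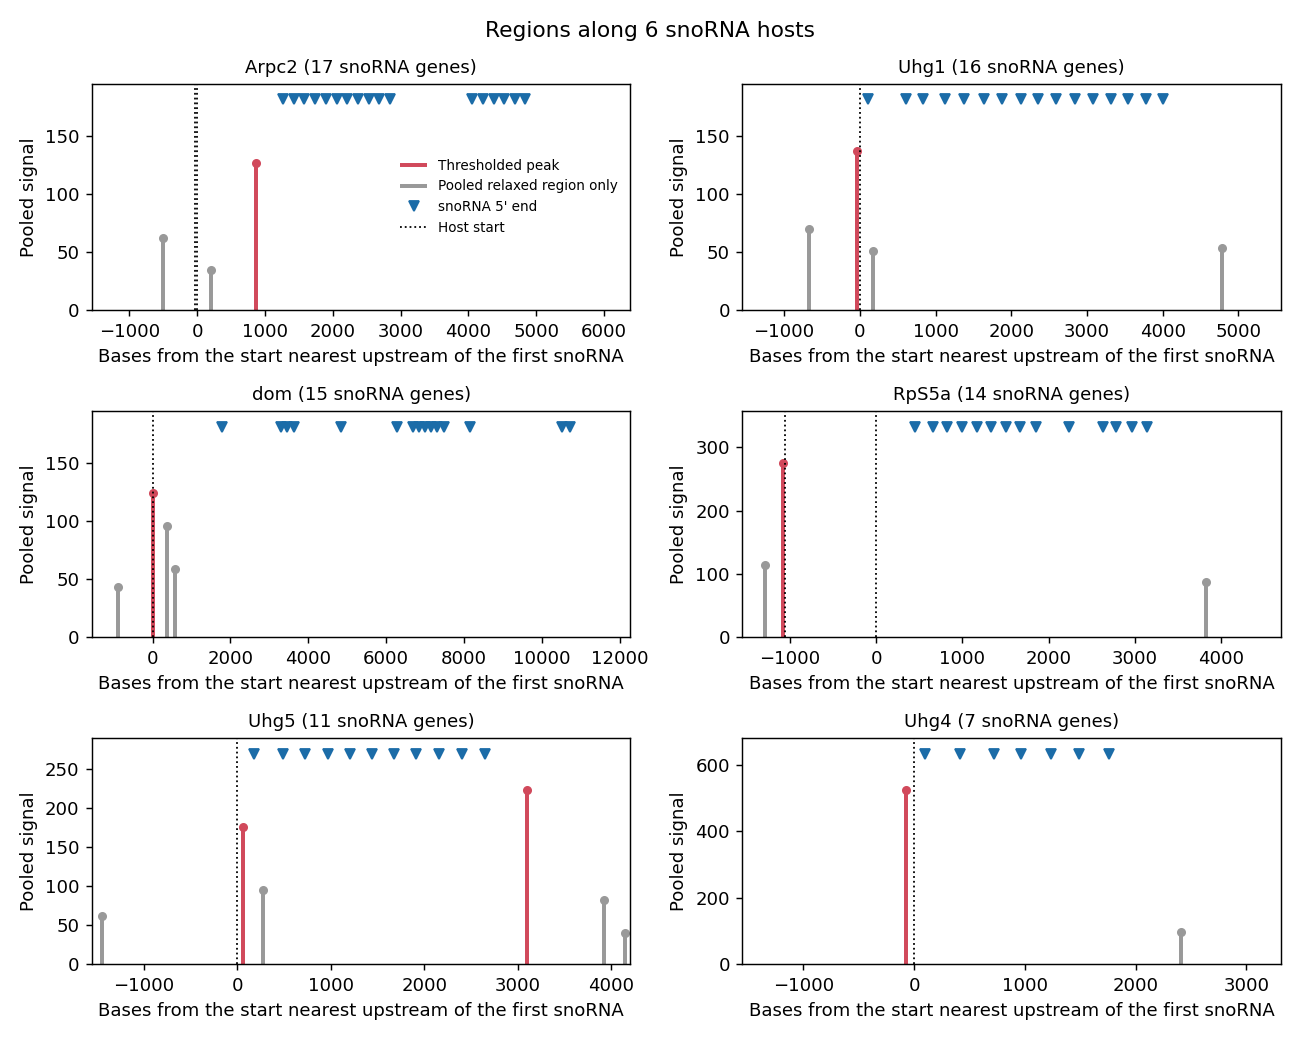
Pooled regions along the 5 hosts with the most snoRNA genes and along Uhg4. Vertical lines mark summits by distance in bases from the host start nearest upstream of the first snoRNA gene, with height giving the pooled signal, red for thresholded peaks and grey for relaxed regions; triangles are snoRNA 5′ ends and dotted lines host starts. Arpc2 was the one with a thresholded summit (signal 127) between 500 bp past the start and the last snoRNA gene.

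Most snoRNA genes with no host were within reach of a relaxed region. A thresholded summit was near 3 of 22, those named above, and the replicates' strongest regions gave 2, 4 and 1. A relaxed pooled summit was near 16 of 22 (72.7%, interval 51.8% to 86.8%), from 12 distinct regions. That compares with 26.8% of all snoRNA genes, 44.5% of tRNA genes, 49.2% of protein-coding genes at the 5′ end and 18.9% of all bases of the arms. Of the 22, 1 had a protein-coding start within 500 bp. After Or-CD13, 185 and Psi18S-301, the strongest was Psi28S-3342, a pseudouridylation guide (signal 88.6; 1.12, 2.23 and 0.88 times the median). Among the 3 U3 genes, U3:54Ab had a relaxed region 39 bp upstream (signal 81.3), matched within 200 bp in replicates 2 and 3 at 1.6 and 1.44 times the median and in replicate 1 by none. At U3:9B a relaxed region (signal 73.0) stood at 0.76, 1.41 and 1.25 times the median. U3:54Aa had no pooled region nearby, and no U3 gene had a thresholded one.

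Among the kinds of snoRNA, a thresholded summit was near 8 of 77 methylation guides (10.4%), 5 of 106 pseudouridylation guides (4.72%) and 7 of 54 with other names (13.0%). It was 0 of 16 for Cajal body RNAs and 0 of 16 for RNAs with a U name, where the interval reaches 19.4%. The replicates gave 9.52% ± 4.56 for methylation guides and 4.72% ± 2.50 for pseudouridylation guides (SD, n = 3). Replicate 2 gave the reverse order, with 4 of 77 methylation and 8 of 106 pseudouridylation guides, so the 2 kinds did not separate beyond the spread between replicates. By chromosome arm, 10 of 96 snoRNA genes on 2R, 4 of 52 on 3L, 4 of 48 on 3R, 1 of 41 on 2L and 1 of 31 on X were near a thresholded summit. The strongest regions of replicates 1, 2 and 3 gave 10, 9 and 7 on 2R, and 3, 3 and 5 on 3L. They gave 3, 2 and 3 on 3R, 3, 2 and 0 on 2L, and 0, 3 and 1 on X. The share over all genes of each arm was not counted, so no arm is called high or low.

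The replicates differed more at single snoRNA genes than in the totals. Of the 17 peaks, all had a region within 200 bp in every replicate's full list, but 9 were in the strongest 4055 regions of all 3, 4 of 2 and 4 of 1. Over the 269 genes, 29 had a summit nearby in the strongest regions of at least 1 replicate and 9 in those of all 3, and 8 of these 9 also had a thresholded one. Among the genes with no thresholded peak, Or-ACA6 was within reach of the strong egr region in each replicate, at 3.80, 5.06 and 6.00 times the median. Psi28S-2648, in RpL36A, had 2.14, 2.64 and 1.27 times the median and a pooled signal of 107. The 5 genes just under the threshold by pooled signal ran from 99.3 to 110 and were led by Me28S-C2645a of Uhg3.

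The proteins that work with snoRNAs were listed too, and 23 genes were found in the annotation. Of these 23, 7 had a thresholded start-site peak (30.4%), with 5, 5 and 7 in the replicates, against 18.4% of protein-coding genes. That gap did not hold in stricter lists. With the 2027 strongest peaks the shares were 8.70% and 10.1%, and with peaks in the strongest regions of every replicate 13.0% and 12.1%. The share of these few genes is therefore not read as high. Fib encodes fibrillarin, the methyltransferase of box C/D particles, and is itself a snoRNA host. Its peak, also within 500 bp of a start of CG3085, had 3.19, 3.20 and 3.76 times the median, a mean of 3.38 ± 0.33 (SD, n = 3). The other 3 box C/D core genes, nop5, Nop56 and hoip, had relaxed regions of signal 89.7, 50.1 and 83.7. Of the 4 box H/ACA core genes, NHP2 had a peak (signal 166; 3.15, 1.82 and 3.42 times the median). Nop60B, the gene of the pseudouridine synthase, had a relaxed region of signal 75.6, Nop10 one of 63.4 and Gar1 none.

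Among 7 assembly factors, 3 had a peak. Nopp140, for a nucleolar phosphoprotein that binds both kinds of particle, had a signal of 231 and 3.04, 4.66 and 2.98 times the median, at a peak shared with CG7148. The peak of rept, an AAA+ ATPase of the assembly machinery, was shared with mRpL21 (signal 128), and that of Nop17l was shared with sax (signal 124). Of 8 genes for U3 partners and other processing factors, CG11583 had a peak of signal 166 (2.19, 3.08 and 2.30 times the median). The second was CG13185, with 1.88, 4.38 and 2.02 times the median and a signal of 179, shared with cuff. For 5 of the 7 genes the summit thus also lay within 500 bp of a start of another gene, and that neighbour's share of the peak was not tested.

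Promoter motifs were looked for on either strand, up to 100 bp from summits. TATCGATA, the DRE bound by DREF, was at 5 of the 17 summits near snoRNA genes (29.4%). It was at 7 of the 47 host start-site summits (14.9%), which include those 5, at 4.86% of all thresholded summits and at 2.03% of all pooled relaxed summits. The 5 were at RpS12, RpS29, RpL10Ab, RpL28 and RpS6, with the motif 9, 19, 38, 44 and 97 bp from the summit. The 2 further hosts were hts and RpS7. Promoters were then searched from 250 bp before to 50 bp after every annotated start, and a match at any start counted. The element was in 21.3% of hosts with a start-site peak, in 27.9% of those without one and in 10.2% of protein-coding genes. Hosts with and without a peak therefore both exceeded all protein-coding genes, and hosts with a peak did not exceed those without. Hosts had more starts to search, 1.92 on average against 1.41 for protein-coding genes, and these shares were not adjusted for that.

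GGTCACAC, the core of Ohler motif 1, was at 0 of the 17 summits and at 4 of 47 host summits (8.51%), with 3.06% of all thresholded summits. The E-box CAGCTG was at 1 of 17 and 8.51% of host summits, and at 11% of all thresholded ones. TATAAA was at 3 of 17 and 21.3% of host summits, against 26.3% of all, and GAGAG at 2 of 17 and 14.9%, against 23.8%. The pyrimidine runs CTTTTT and CTTTTC, of the kind found at ribosomal protein gene starts, were at 34.0% and 27.7% of host summits, against 29.6% and 20% of all. In the promoter windows of any start, again not adjusted for the number of starts, CTTTTC was in 53.2% of hosts with a peak. It was in 25.6% of hosts without one and in 32.2% of protein-coding genes. CTTTTT was in 70.2%, 55.8% and 45.1% in the same order, so there hosts without a peak also exceeded protein-coding genes. Of the motifs searched in promoters, CTTTTC had the widest gap between hosts with and without a peak. A match is a description of letters in these windows, and most ribosomal protein hosts were among the hosts with a peak.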

How the data were processed

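Per the deposited inventory texts, the authors called relaxed regions for every replicate against 1 control file, called them again on the pooled replicates, and obtained the thresholded set from both by the irreproducible discovery rate. The aligner, caller and threshold the authors chose were not given in the sources used here. The deposited signal of a region is the authors' own, on an unstated scale. It was set side by side between replicates by rank or relative to each list's median. Depth is unknown, so no interval rests on reads. The dm3 lists were not used here.

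Genes and start sites were those of Ensembl release 115 (BDGP6.54), and sequences those of RefSeq. Coordinates are dm6, 1-based. A host is a gene of another biotype on the same strand whose span holds the snoRNA gene, protein-coding first, then the shortest. A region of a replicate was matched to a peak within 200 bp of its summit. For each replicate, its strongest 4055 regions were counted, as many as the thresholded list holds.

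The snoRNA genes, lists, motifs and rules were chosen with earlier results of these data known. The rule named hosts with a peak near a snoRNA gene (up to the 20 strongest), the 5 strongest snoRNA genes without a host, the 5 hosts with the most snoRNA genes, the 5 furthest from the host start with a peak, and snoRNP protein genes with a peak; other genes were named after their values were seen. No test was made, with 1 group. Counting was tested on simulated positions. Python 3.11.15, NumPy 2.4.6, pandas 2.3.3, SciPy 1.17.1 and matplotlib 3.10.9 were used.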

Additional observations from a re-analysis of the deposited data

How the results depend on the processing

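Of 53 alternatives, 22 kept the count within 1.5 times its value and 31 moved it. The 20 snoRNA genes with a thresholded summit became 9 within 200 bp and 56 within 1000 bp (3.35% and 20.8%). Protein-coding genes stood at 12.2% and 19.7% at the 5′ end, and at 13.9% and 21.4% at any start. The 20 became 7 with the 2027 strongest peaks and 32 by any overlap of the interval. With peaks in the strongest regions of every replicate (2456) they became 11, and 10 and 11 with matches within 100 and 300 bp. For the 72 with a relaxed summit the counts were 31 within 200 bp and 140 within 1000 bp. The 11 close to the host start became 6, 18, 5 (the 2027 strongest) and 7 (every replicate), and the 6 further in became 1, 32, 1, 3 and, by overlap, 12. The 47 hosts became 31 with the 2027 strongest, where protein-coding genes fell to 10.1%, and stayed within 37 and 51 otherwise. The 7 snoRNP protein genes became 2 with the 2027 strongest (8.70%, against 10.1% of protein-coding genes) and 3 in every replicate (13.0%, against 12.1%). Leaving out a replicate kept peaks in the strongest regions of both others, which removes peaks by its construction: it gave 12 to 13 snoRNA genes, 38 to 40 hosts, 7 to 9 close genes, 3 to 3 further genes and 3 to 4 protein genes, with protein-coding genes at 13.5% to 13.7%. Alternatives added after seeing the data gave 37 hosts with the start next upstream of the first snoRNA gene, 40 with each peak given to the nearest start, and 5 further genes without Uhg1, Uhg4 and Uhg5. No paired analysis was possible because the series has 1 group and no test. The cause of each move was not tested, and unknown depth limits every count.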

Other observations

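Small nuclear RNA genes, whose products the Cajal body RNAs modify, were near a summit in the replicates' strongest regions in 5, 7 and 5 of 32 cases. SnoRNA genes within 500 bp of any protein-coding start numbered 28 of the 247 with a host and 1 of the 22 without. Some thresholded intervals appeared more than once with another summit (17 repeats), and every summit entered the counts.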
